A study of Mus musculus with 6 samples.

Results

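The complement system genes were 33 genes taken by name from a fixed list: the recognition molecules of the 3 complement pathways, their proteases, the central components C2, C3 and C4, the terminal components, and the soluble and membrane-bound regulators. Of these 33 genes, 26 were listed once for every mouse and entered the comparison, which covered 18628 tested genes out of 47241 usable names. The other 7 (Masp2, C2, C4a, C4b, Cfb, C4bp and Cd55) were listed at more than 1 place in the genome and are described apart. RNA-Seq was carried out on frozen, unfixed liver of 3 laboratory mice (inbred C57BL/6, adult, all male, bought and sacrificed on arrival) and 3 wild mice (Mus musculus trapped alive in New South Wales and kept under standard husbandry for some months before sacrifice). Only wild mouse 1 was male, as wild mice 2 and 3 were females, and wild mouse 3 was trapped at Yass whereas wild mice 1 and 2 came from Murrumbateman. Sex was thus partly confounded with origin, and any difference in diet, infection history or genetic background cannot be told apart from origin. Each mouse gave 1 library, and no mouse carried an engineered allele.

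Complement is a cascade of plasma proteins that marks microbes and damaged cells. Antibody-bound C1q starts the classical pathway, mannose-binding lectins and ficolins start the lectin pathway, and the alternative pathway runs continuously at a low level and amplifies the others. All 3 converge on C3, whose cleavage product coats the target, and then on C5, which with C6, C7, C8 and C9 forms the membrane attack complex. Hepatocytes make most of these proteins and are their main source in blood, whereas C1q and properdin (Cfp) come mostly from macrophages and other myeloid cells, and factor D (Cfd) mostly from fat tissue.

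Values are given as FPKM, mapped fragments normalised for the length of the transcript and the size of the library, and as zFPKM, for which the authors subtracted from log2 FPKM the mode of each mouse's own distribution and divided by its SD. The mode lay between 0.491 and 2.51 in log2 FPKM and the SD between 2.51 and 3.12, so the order of 2 mice can differ between both scales. No read counts were used here and the depth of the libraries is unknown. The sexes given in the labels matched the data, since Xist was higher in both wild females than in any male and the Y-linked genes were at or near 0 in these females alone. Of 6 hepatocyte markers with a value, 3 (Ttr, Apoa1 and Serpina1a) were higher and 2 (Tat and Cyp2e1) lower in laboratory mice, and all 6 were expressed in every mouse. In bulk liver, fewer cells of a type and less RNA per cell cannot be told apart.

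On zFPKM as deposited, the clearest differences were in the terminal components C6, C8a, C8b and C9, and in C3 and clusterin. In FPKM the ranges of C6 and C8a overlapped between the groups, with the wild male inside the laboratory range. Transcripts of C6, C8a, C8b and C9 were 2.28-fold to 5.06-fold higher in mean FPKM in laboratory mice, whereas C3 and Clu were 3.77-fold and 4.68-fold higher in wild mice. By limma on zFPKM with Benjamini-Hochberg adjustment over all tested genes, 8 of the 26 members were higher in laboratory mice (Mbl1, Cfp, C6, C8a, C8b, C8g, C9 and Vtn), 2 were lower (C3 and Clu), and 16 did not pass an adjusted p of 0.05. Of all tested genes, 7.17% were called higher and 7.28% lower. The zFPKM ranges of the groups did not overlap for 8 members, 6 with the laboratory mice above (C6, C8a, C8b, C8g, C9 and Vtn) and 2 with the laboratory mice below (C3 and Clu), against 14.1% and 14.1% of all tested genes. C3, Clu, C6, C8a, C8b and C9 stayed past the threshold whichever of the 6 mice was left out. Mbl1, C8g and Vtn kept it only without laboratory mouse 3, and Cfp only without wild mouse 2 or wild mouse 3, so that 4 members were higher without laboratory mouse 1, laboratory mouse 2 or wild mouse 1, and 5 without wild mouse 3. With sex as a covariate 3 members passed (C1qa, C1qb and Cfp, all higher in laboratory mice). The median difference was 0.15 zFPKM over the 26 members and 0.0049 over all tested genes. With sex as a covariate these medians were 0.25 and 0.27 zFPKM.

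The scale changed which members stood out. On log2(FPKM + 0.1), where the median of all tested genes was itself 0.47 lower in laboratory mice, 3 members were called higher and 10 lower, against 8.19% and 38% of all tested genes. Cd59a (limma adjusted p = 0.000234), Masp1 (0.000366), Clu (0.000451) and C3 (0.000811) had the smallest values of the members there, and C6 did not pass (0.0767). In FPKM itself, C8b and C9 were the 2 members with every laboratory mouse above every wild mouse, and 10 members had every laboratory mouse below every wild mouse (Mbl2, C1ra, Masp1, C3, Hc, Serping1, Cfi, Clu, Cd59a and Cr1l). Of all tested genes, 12.1% lay wholly above and 43.7% wholly below in FPKM, so a lower FPKM in laboratory mice was common across the liver transcriptome and the 10 members were no larger a share. C3 and Clu were lower, and C6, C8a, C8b and C9 higher, in laboratory mice in all 18 fits made. A change of floor, filter or variance model left these estimates unchanged, so not all of these fits could differ in sign. The fit drew its standard errors wholly from the trend of variance with expression and not from each gene's own spread. When the trend was dropped, so that a gene's own variance (4 degrees of freedom) was weighed with a common prior (3.74 degrees of freedom), no member passed the adjusted threshold and 6 had an unadjusted p under 0.05, while 795 genes passed over the whole table. Nothing states that the mice of a group were unrelated, so the p-values apply to these mice only. Those of the main fit do not measure the spread of a single gene between the mice.

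**Figure D1:**
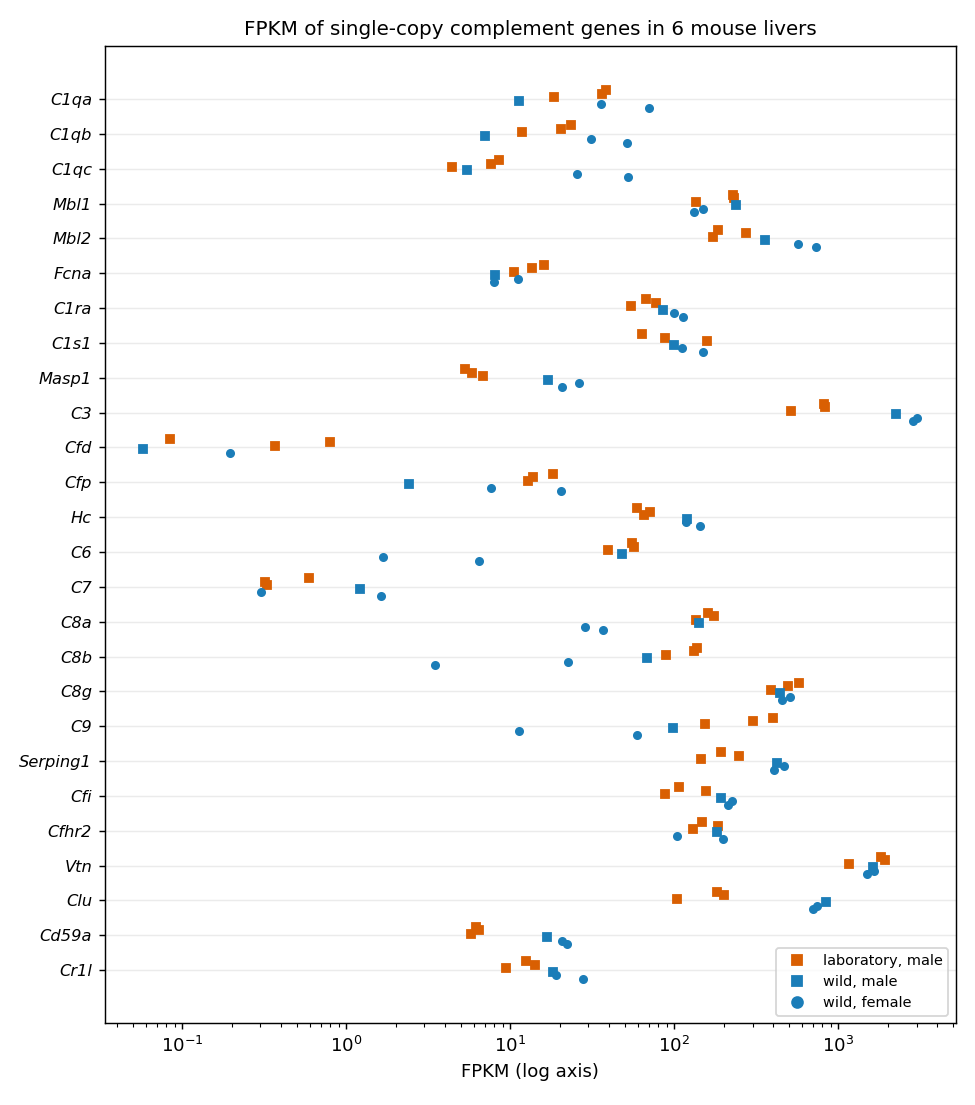
FPKM (log axis) of the 26 complement genes listed once, ordered by role from recognition to regulators, with 1 symbol per mouse. C3 and Clu lie higher in all 3 wild mice, and the wild symbols of C6 and C8a split into the male beside the laboratory mice and both females far below. The value of 0 for Cfd in wild mouse 3 is not drawn.

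Sequence directly upstream of the annotated gene is shown for C8b and C9, the members whose laboratory values were all above the wild values on both scales, and for C3, which went the other way, as the DNA from which these transcripts start. The sequences come from RefSeq on GRCm38.p6 and end at the base before the start site, 5′ to 3′ on the strand of the gene, in windows chr4:104766067-104766316 (plus strand) for C8b, chr15:6445096-6445345 (plus strand) for C9 and chr17:57228137-57228386 (minus strand) for C3. Capitals mark a match to the C/EBP motif on either strand.
C8b: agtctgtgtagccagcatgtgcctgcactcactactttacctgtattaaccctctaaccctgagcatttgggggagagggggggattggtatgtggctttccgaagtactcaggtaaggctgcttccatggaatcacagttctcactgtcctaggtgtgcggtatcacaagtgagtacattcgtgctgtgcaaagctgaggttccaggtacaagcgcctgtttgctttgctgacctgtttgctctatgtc
C9: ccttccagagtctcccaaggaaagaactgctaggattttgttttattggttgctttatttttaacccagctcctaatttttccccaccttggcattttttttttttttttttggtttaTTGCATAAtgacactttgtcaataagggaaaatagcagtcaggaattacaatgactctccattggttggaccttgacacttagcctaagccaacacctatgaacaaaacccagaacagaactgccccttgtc
C3: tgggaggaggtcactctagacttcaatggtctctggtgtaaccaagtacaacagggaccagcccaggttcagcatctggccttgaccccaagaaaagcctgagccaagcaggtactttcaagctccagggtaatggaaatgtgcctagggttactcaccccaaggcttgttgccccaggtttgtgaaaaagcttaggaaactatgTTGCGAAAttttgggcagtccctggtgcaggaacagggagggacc
Upstream windows of 250 bases were matched for 24 of the 33 members. The C/EBP motif, searched as TTNNGCAA on both strands, was present in 3 of these 24 (C1s1, C3 and C9; 12.5%) and in 9.55% of 27025 promoters. In C9 the match ran from base -132 to -125 and in C3 from base -45 to -38 relative to the start. A STAT motif, searched as TTCNNNGAA, was present in C7, C8a and Masp2 (12.5%) and in 7.18% of all promoters. An HNF1 motif, searched as GTTAAT, any 2 bases and TTAA, was present in Hc alone (4.17%) and in 0.137% of all promoters. A shorter HNF1 form, GTTAATNAT, which was tried after the result of the longer one was known and which overlaps it, was present in C4bp, Cfhr2 and Hc (12.5%) and in 0.781% of all promoters. An HNF4 motif, searched as CAAAGTCCA, was in no member and in 0.381% of all promoters. These matches describe the letters only.

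The terminal components assemble the pore of the membrane attack complex, and 5 of the 7 (C6, C8a, C8b, C8g and C9) were higher in laboratory mice. C9, the subunit that polymerises to form the pore wall (chr15:6445346-6498825), was at 398, 303 and 155 FPKM in the laboratory mice and at 98.2, 11.3 and 59.5 FPKM in wild mice 1, 2 and 3. Every laboratory mouse was above every wild mouse, although laboratory mouse 3 was nearer to wild mouse 1 than to laboratory mouse 1. The means were 285 ± 123 and 56.3 ± 43.5 FPKM (SD, n = 3 each), a 5.06-fold difference, and the limma difference was 1.15 ± 0.12 zFPKM (standard error; adjusted p = 7.93e-19). C8b, the beta chain of C8 (chr4:104766317-104804548), was at 137, 132 and 89.0 FPKM in laboratory mice and at 68.3, 22.5 and 3.5 FPKM in wild mice. The groups did not overlap, and wild mouse 3 had the lowest value by far. The limma difference of C8b was 1.18 ± 0.14 zFPKM (adjusted p = 2.42e-15), with a 3.80-fold difference of means. The standard errors here and below come from the trend of variance with expression. They do not reflect the spread of C8b itself, whose zFPKM SD was 0.21 in laboratory and 0.69 in wild mice. Without the trend, the limma adjusted p was 0.0669 for C9 and 0.106 for C8b.

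C6 and C8a showed a different arrangement, in which the wild male resembled the laboratory mice in FPKM. C6, which binds C5b and begins the assembly of the complex (chr15:4727067-4804045), was at 55.0, 56.5 and 39.5 FPKM in laboratory mice, 48.2 FPKM in the wild male, but only 1.67 and 6.42 FPKM in the wild females. The wild male lay inside the laboratory range and both females far below it, at an 11.9-fold ratio of the male to their mean. C8a, the alpha chain of C8 (chr4:104815679-104876487), was at 161, 174 and 136 FPKM in laboratory mice, 141 FPKM in the wild male, and 28.6 and 37.0 FPKM in the wild females. The wild male was again inside the laboratory range, and the ratio of the male to the mean of the females was 4.30. This arrangement, the wild male inside the laboratory FPKM range and both females below it, was found in 2 of the 26 members and in 1.65% of all tested genes. The limma differences were 1.11 ± 0.16 zFPKM for C6 (adjusted p = 2.73e-10) and 0.77 ± 0.12 zFPKM for C8a (adjusted p = 2.90e-08).

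The male was also above the females in C8b and C9, by 5.25-fold and 2.77-fold. A wild male at least 2-fold above both wild females occurred in 3 of the 26 members (C6, C8a and C8b) and in 4.2% of all tested genes. With sex as a covariate, which leaves the single wild male to set the difference from the laboratory males, the estimate was 0.84 zFPKM for C9 (adjusted p = 0.0572), 0.64 for C8b (adjusted p = 0.202), 0.40 for C8a (adjusted p = 0.121) and 0.39 for C6 (adjusted p = 0.333). All 4 kept their direction and none passed the threshold. In this fit the median over all tested genes was itself 0.27 zFPKM higher in laboratory mice, so direction alone says little. With 1 wild male and 2 wild females, a difference between sexes and a difference between single wild mice cannot be told apart.

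The gamma chain of C8 moved little. C8g, a lipocalin bound to the alpha chain (chr2:25498650-25501777), was at 579, 496 and 388 FPKM in laboratory mice and at 439, 505 and 455 FPKM in wild mice. The FPKM ranges overlapped and the means differed 1.05-fold, while the limma difference on zFPKM was 0.27 ± 0.10 (adjusted p = 0.0478). The 3 chains of C8 are found in equal number in the protein, but their transcripts were not in one proportion across the mice. Within a mouse, the FPKM ratio of C8b to C8g was 0.230 to 0.266 in laboratory mice, against 0.156, 0.0446 and 0.00769 in wild mice 1, 2 and 3. The ratio of C8a to C8g was 0.279 to 0.352 in laboratory mice but 0.322, 0.0567 and 0.0814 in the 3 wild mice, the male first. C8a and C8b, neighbours on chromosome 4, also parted in wild mouse 3, where C8a was 10.6-fold above C8b, against 1.17-fold to 2.07-fold in the other 5 mice.

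Hc, the gene of C5 (chr2:34983329-35068506), went the other way in FPKM, at 59.2, 71.4 and 65.6 in laboratory mice, against 119, 117 and 144 in wild mice. The FPKM ranges did not overlap and the means differed 1.94-fold, yet on zFPKM the ranges overlapped and the difference was -0.08 ± 0.12 (adjusted p = 0.766). C7, which anchors the growing complex in the membrane and is made largely outside hepatocytes, was at 0.305 to 1.62 FPKM in all mice, with a difference of -0.17 ± 0.38 zFPKM (adjusted p = 0.834). Summed over C6, C8a, C8b and C9, the level was 752, 665 and 419 FPKM in laboratory mice, against 356, 64.2 and 106 FPKM in wild mice. The terminal components thus held 4 genes that were lowest in the wild females and a C8 chain at a near-constant FPKM. The FPKM of C5 was higher in every wild mouse, as was that of 43.7% of all tested genes.

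**Figure D2:**
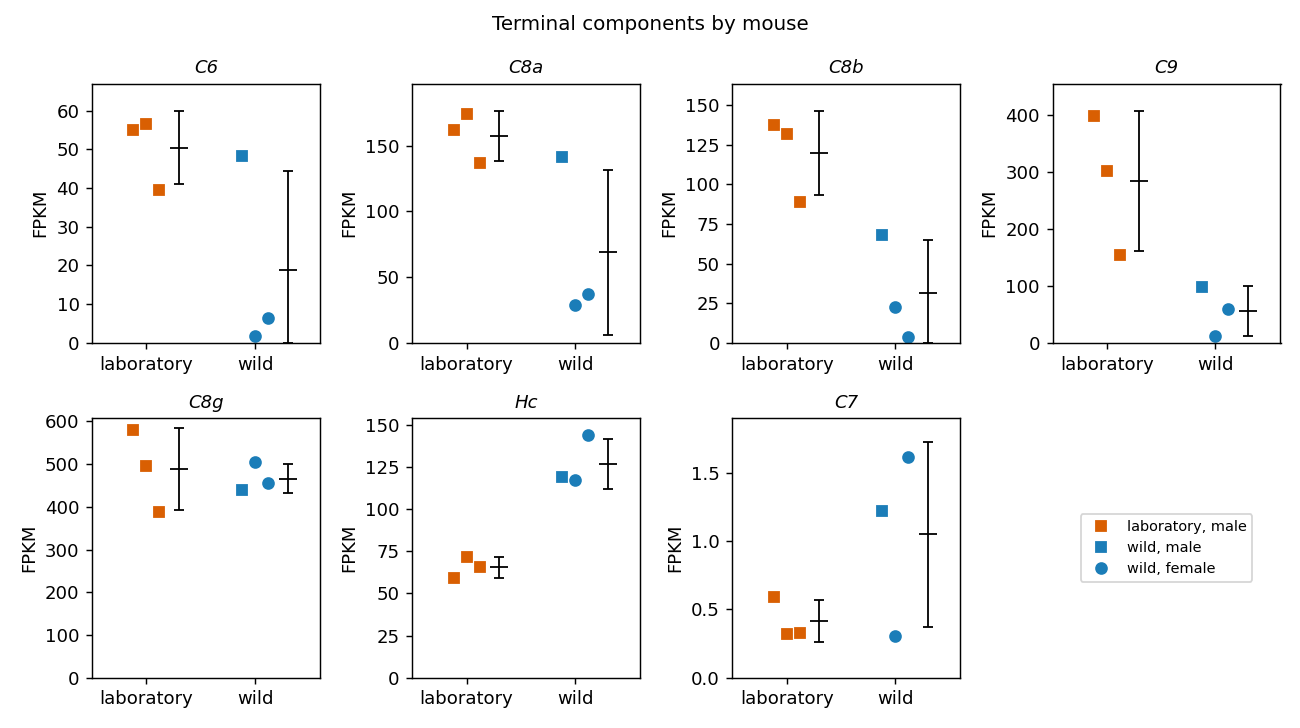
FPKM of each terminal component by mouse (linear axes from 0), with symbols for single mice and bars for the group mean ± SD (n = 3 each; bars that would reach below 0 stop there). C6, C8a, C8b and C9 are lowest in the wild females, C8g overlaps between the groups, and Hc is higher in all wild mice.

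C3, the component on which all 3 pathways converge (chr17:57203967-57228136), was at 824, 825 and 513 FPKM in laboratory mice and at 2261, 3012 and 2873 FPKM in wild mice. The lowest wild mouse was well above the highest laboratory mouse. The means were 720 ± 180 and 2715 ± 400 FPKM (SD, n = 3 each), and the limma difference was -0.41 ± 0.09 zFPKM (adjusted p = 0.000139; 0.101 with sex as a covariate, where the estimate was -0.34). By FPKM, C3 ranked 74th, 83rd and 110th among all usable names in laboratory mice, against 35th, 20th and 19th in wild mice. It supplied 14.2% to 15.4% of the summed FPKM of the 26 members in laboratory mice, against 30.9% to 37.7% in wild mice.

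Among the soluble regulators, 1 was lower and 1 higher in laboratory mice. Clu, clusterin, a chaperone that also binds the terminal complex and blocks its insertion (chr14:65968483-65981548), was at 182, 202 and 103 FPKM in laboratory mice and at 841, 743 and 697 FPKM in wild mice. The groups were far apart, and the wild male and females were alike. The limma difference of Clu was -0.55 ± 0.10 zFPKM (adjusted p = 6.42e-06), and with sex as a covariate it was -0.57 (adjusted p = 0.0519). Vtn, vitronectin, which also blocks the terminal complex and serves in cell adhesion (chr11:78499120-78502325), was at 1814, 1936 and 1158 FPKM in laboratory mice and at 1630, 1647 and 1502 FPKM in wild mice. Its FPKM ranges overlapped and its means differed 1.03-fold, while on zFPKM the laboratory mice were above the wild mice by 0.26 ± 0.09 (adjusted p = 0.0323). Vtn therefore supplied the largest share of the summed FPKM of the 26 members in laboratory mice, 32.1% to 34.7%, and 18.8% to 22.3% in wild mice, where C3 supplied more in each mouse.

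The inhibitors of the early steps were at higher FPKM in wild mice but did not pass the threshold in the main fit on zFPKM. After quantile normalization Serping1 passed as lower in laboratory mice (limma adjusted p = 0.0292). Serping1, the C1 inhibitor (chr2:84765360-84775444), was at 193, 248 and 146 FPKM in laboratory mice and at 423, 467 and 405 FPKM in wild mice, with a zFPKM difference of -0.16 ± 0.11 (adjusted p = 0.378). Cfi, factor I, the protease that cleaves C3b and C4b (chr3:129836727-129875332), was at 106, 157 and 87.2 FPKM in laboratory mice and at 192, 225 and 211 FPKM in wild mice, with a difference of -0.06 ± 0.12 zFPKM (adjusted p = 0.820). Both had FPKM ranges that did not overlap, at 2.21-fold and 1.79-fold higher means in wild mice. Cfhr2, a soluble regulator (chr1:139810292-139858699), overlapped on both scales, at 148, 186 and 129 FPKM in laboratory mice, against 182, 104 and 198 FPKM in wild mice, and belongs to a family of near-identical genes whose reads may be shared (difference 0.24 ± 0.12 zFPKM, adjusted p = 0.170). Of the membrane regulators, Cd59a, which stops C9 from polymerising on the body's own cells (chr2:104095753-104115410), was at 6.18, 6.49 and 5.80 FPKM in laboratory mice and at 16.7, 20.8 and 22.1 FPKM in wild mice. Cr1l, the rodent regulator Crry, which controls C3 and C4 cleavage on cell surfaces (chr1:195098711-195131570), was at 12.5, 14.3 and 9.38 FPKM in laboratory mice and at 18.1, 18.9 and 27.8 FPKM in wild mice. Cd59a and Cr1l were thus separated in FPKM, at 3.22-fold and 1.80-fold, but not called on zFPKM (limma adjusted p = 0.224 and 0.889). Laboratory FPKM wholly below wild FPKM, as in Serping1, Cfi, Cd59a and Cr1l, was found in 43.7% of all tested genes.

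**Figure D3:**
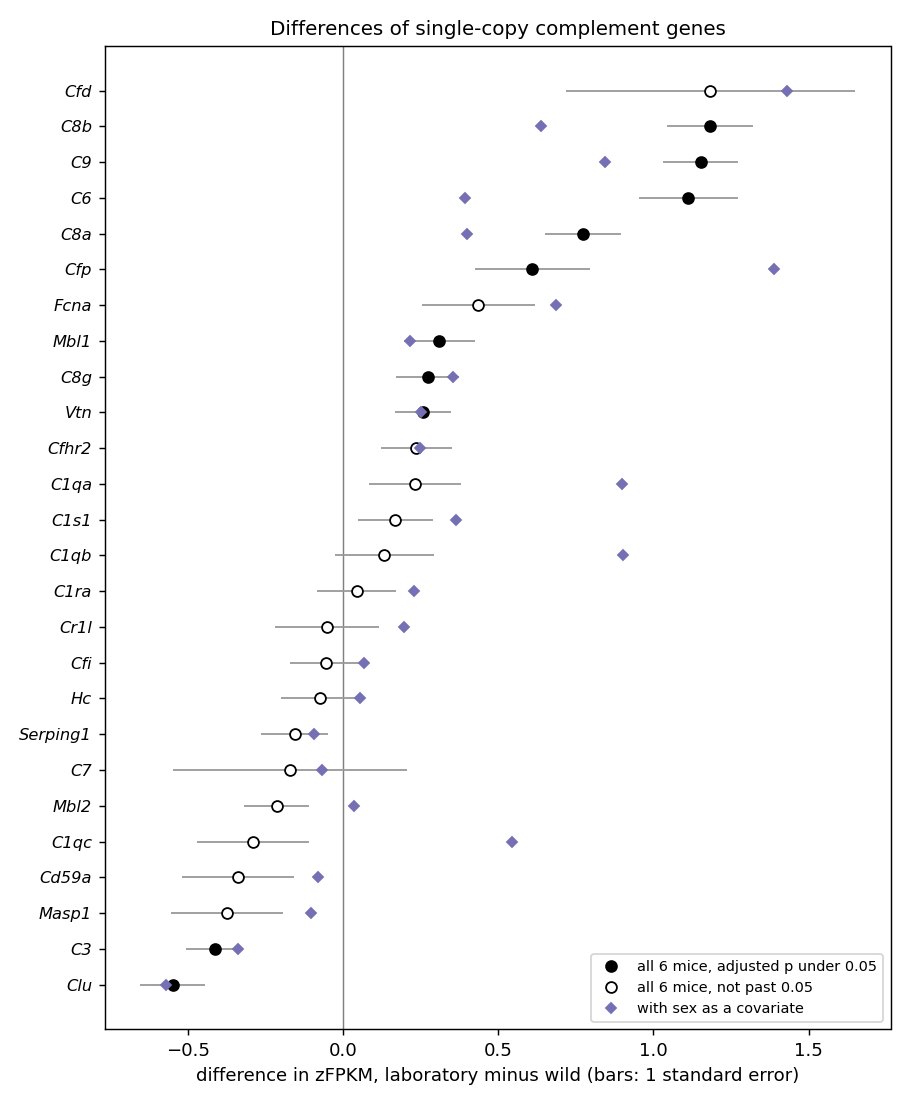
Difference in zFPKM (laboratory minus wild) of the 26 members, with bars of 1 standard error from limma, filled where the adjusted p was under 0.05, and the estimate with sex as a covariate as diamonds. The bars come from the trend of variance with expression and not from each gene's own spread. The diamonds of C6, C8a and C8b lie nearer to 0, and those of C1qa, C1qb and Cfp farther above it, than the estimates over all 6 mice.

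The recognition molecules of the lectin pathway did not move as one group. Mbl1, mannose-binding lectin A (chr14:41151456-41163904), was at 229, 231 and 135 FPKM in laboratory mice and at 237, 150 and 131 FPKM in wild mice, and was called higher in laboratory mice on zFPKM (0.31 ± 0.11, adjusted p = 0.0435) although both its FPKM and its zFPKM ranges overlapped. Mbl2, mannose-binding lectin C (chr19:30232906-30239687), was at 184, 274 and 171 FPKM in laboratory mice and at 358, 565 and 731 FPKM in wild mice, a 2.63-fold difference of means that did not pass on zFPKM (-0.21 ± 0.11, adjusted p = 0.172). Within a mouse, the FPKM ratio of Mbl2 to Mbl1 was 0.805 to 1.27 in laboratory mice, against 1.51, 3.77 and 5.58 in wild mice 1, 2 and 3. The ficolin Fcna, at 8.0 to 16.1 FPKM over all mice, did not pass (0.44 ± 0.18 zFPKM, adjusted p = 0.0900).

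None of the 3 initiating proteases listed once passed on zFPKM. Masp1, a protease carried by the lectins (chr16:23451785-23521240), was at 5.34, 5.89 and 6.80 FPKM in laboratory mice and at 17.1, 26.1 and 20.7 FPKM in wild mice, 3.54-fold higher in mean FPKM in wild mice (-0.37 ± 0.18 zFPKM, adjusted p = 0.162). C1ra, which activates C1s within C1 (chr6:124512621-124523440), was at 67.2, 76.9 and 54.5 FPKM in laboratory mice and at 85.3, 99.8 and 114 FPKM in wild mice, with a difference of 0.04 ± 0.13 zFPKM (adjusted p = 0.879). C1s1, which cleaves C4 and C2, was at 63.8 to 158 FPKM over all mice (0.17 ± 0.12 zFPKM, adjusted p = 0.410). The mouse genome holds a second, near-identical copy of C1ra and of C1s1, and the copies C1rb and C1s2 were higher in wild mice. The FPKM ratio of C1rb to C1ra was 0.0630 to 0.0829 in laboratory mice, against 0.344 to 0.353 in wild mice, and that of C1s2 to C1s1 was 0.0154 to 0.0206 and 0.0816 to 0.146. As the copies can share reads, how the reads were divided between them is uncertain. Summed over both copies, C1ra and C1rb were at 59.0 to 83.1 FPKM in laboratory mice, against 115 to 153 FPKM in wild mice. The sums of C1s1 and C1s2 overlapped, at 64.9 to 161 FPKM in laboratory mice, against 114 to 163 FPKM in wild mice.

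The C1q chains, which are encoded side by side on chromosome 4, were not called. C1qa was at 38.3, 36.2 and 18.6 FPKM in laboratory mice and at 11.3, 35.8 and 70.1 FPKM in wild mice, C1qb at 23.3, 20.5 and 11.8 against 7.05, 31.2 and 51.7 FPKM, and C1qc at 8.52, 7.63 and 4.41 against 5.42, 25.7 and 52.3 FPKM. All 3 were lower in the wild male than in either wild female, and the wild mice spread more widely than the laboratory mice. The limma differences were 0.23 ± 0.15 zFPKM for C1qa (adjusted p = 0.342), 0.13 ± 0.16 for C1qb (adjusted p = 0.670) and -0.29 ± 0.18 for C1qc (adjusted p = 0.321). With sex as a covariate, C1qa (0.90 zFPKM, adjusted p = 0.0414) and C1qb (0.90 zFPKM, adjusted p = 0.0457) passed as higher in laboratory mice. The 3 chains are present in equal number in the protein, and the FPKM ratio of C1qb to C1qa overlapped between the groups, but that of C1qc to C1qa was 0.211 to 0.237 in laboratory mice, against 0.478 to 0.746 in wild mice.

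Cfp, properdin, which stabilises the convertase of the alternative pathway (chrX:20925454-20931555), was at 18.3, 13.7 and 12.7 FPKM in laboratory mice and at 2.42, 7.67 and 20.4 FPKM in wild mice. Like C1qa and C1qb it was lowest in the wild male and highest in wild mouse 3, so the ranges overlapped. It was called higher in laboratory mice (0.61 ± 0.18 zFPKM, limma adjusted p = 0.0102). Without wild mouse 1 the difference was 0.22 zFPKM (adjusted p = 0.478). The call was also lost without any 1 of the laboratory mice (adjusted p from 0.0966 to 0.217). With sex as a covariate, where wild mouse 1 alone sets the difference, it was 1.39 zFPKM (adjusted p = 0.00662, and 0.183 when males alone were fitted). Both wild females were at least 2-fold above the wild male in C1qa, C1qb, C1qc and Cfp, 4 of the 26 members, against 12.8% of all tested genes. Cfd was at or under 0.794 FPKM in every mouse and listed at 0 in wild mouse 3 (adjusted p = 0.0683).

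Markers of macrophages followed these genes in part. The summed FPKM of 12 macrophage and Kupffer cell markers was 78.2, 69.1 and 63.6 in laboratory mice, against 76.8, 151 and 233 in wild mice 1, 2 and 3, and none of the markers was at 0 in all mice. Clec4f, a defining marker of Kupffer cells, was at 22.8, 16.2 and 22.2 FPKM in laboratory mice and at 6.02, 18.8 and 28.9 FPKM in wild mice. Adgre1, at 0.288 FPKM in the wild male and 4.87 FPKM in wild mouse 3, and Cd68, at 0.886 and 14.9 FPKM, had the same order among the wild mice. Timd4, Cd5l, Marco, Csf1r, Cd163, Mpeg1 and Vsig4 had this order as well. Folr2 had the opposite order (1.99, 0.914 and 0.119 FPKM in wild mice 1, 2 and 3), and Slc40a1 was highest in wild mouse 2 (30.6, 61.6 and 48.5 FPKM). The summed level of the wild male was close to that of laboratory mouse 1. In the wild male most of it came from Mpeg1 and Slc40a1, at 30.4 and 30.6 FPKM, against 5.90 and 17.3 FPKM in laboratory mouse 1. Every other marker of the list was lower in the wild male than in laboratory mouse 1, as was C1qa (11.3 against 38.3 FPKM). Of the 12 markers, Folr2 was higher and Mpeg1 lower in laboratory mice, against 10 did not pass. Of 8 monocyte and neutrophil markers, S100a8 and S100a9 were higher and Lyz2 lower in laboratory mice, at summed FPKM of 11.4 to 21.7 in laboratory mice and of 16.1, 55.2 and 130 in wild mice. The part of these cells in the values of C1q and Cfp was not tested.

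**Figure D4:**
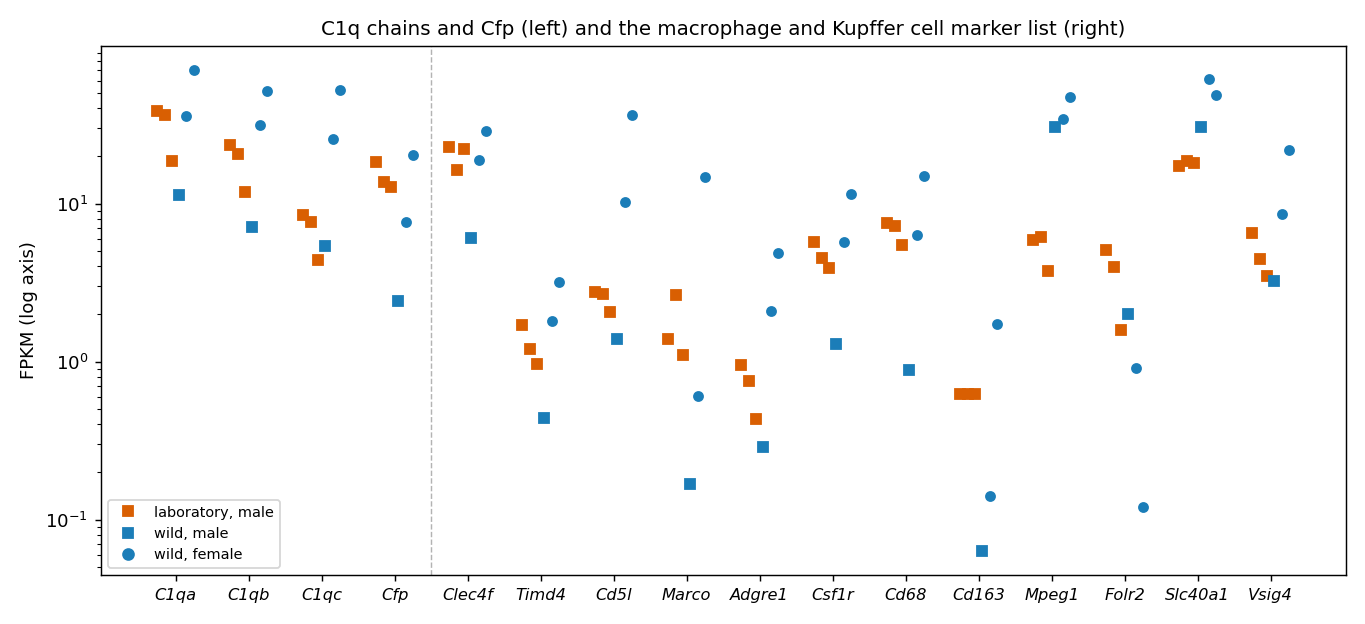
FPKM (log axis) by mouse of the C1q chains and Cfp, left of the dashed line, and of the 12 macrophage and Kupffer cell markers, right of it. The wild male is lowest of the wild mice for the C1q chains, Cfp, Clec4f, Adgre1 and Cd68, and wild mouse 3 is highest.

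Markers of fat, stellate and endothelial cells were counted beside these. The adipocyte markers Lep, Plin1 and Retn were listed at 0 in all mice, and Adipoq was at or under 0.0499 FPKM. Cidec was at 0.170 to 0.412 FPKM and Fabp4 at 6.55 to 13.4 FPKM over all mice. None of the 3 adipocyte markers tested was called. Of 9 stellate, fibroblast and mesothelial markers, Col1a1, Col3a1 and Dpt were higher in laboratory mice. Their summed FPKM was 35.5 to 55.3 in laboratory mice, against 76.6 to 139 in wild mice, most of it from Dcn. Of 5 endothelial markers none was called. Acute phase genes, which hepatocytes regulate in inflammation as they do C3, went in both directions. Of 14 tested, Orm1, Orm2 and Hp were called higher and Lcn2, Apcs, Itih3, Itih4, Fga and Fgg lower in laboratory mice, against 7.17% and 7.28% of all tested genes. The FPKM ranges of Orm1, Hp and Lcn2 overlapped between the groups. The part of the acute phase genes in the results for C3 and Clu was not tested.

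Among further genes of the complement system, more were lower than higher in laboratory mice. Of 25 such genes, 22 were tested, of which 7 were lower in laboratory mice (among them C1rb, C1rl, C1s2, Colec10, Crp and Cpn2), 1 was higher (Susd4) and 14 did not pass, with a median of -0.10 zFPKM. Over all tested genes 7.28% were lower and 7.17% higher. With sex as a covariate, and without the trend, 0 of the 22 passed by limma. Crp, C-reactive protein, which binds C1q, was at 24.8, 32.5 and 15.6 FPKM in laboratory mice and at 149, 182 and 229 FPKM in wild mice (-0.80 ± 0.13 zFPKM, adjusted p = 7.44e-08). Cpn2, a subunit of the carboxypeptidase that inactivates C3a and C5a, was at 14.2, 18.4 and 10.4 against 79.0, 108 and 74.5 FPKM (-0.67 ± 0.15 zFPKM). Susd4, a membrane protein that inhibits complement, was at 0.771, 1.46 and 2.14 FPKM in laboratory mice, 3.43 FPKM in the wild male, and 0.0628 and 0.0723 FPKM in the wild females, with the wild male above and both females below the laboratory mice. The receptors C3ar1, C5ar1, C5ar2 and Cr2 were at or under 0.491 FPKM in every mouse.

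The 7 members listed at more than 1 place have a copy on a reference chromosome and others on alternate sequences of the assembly. Laboratory mouse 1 lists 1 copy of each, the chromosome copy for C4a and C4bp and an alternate copy for the other 5, so its values are set apart where the copy differs. As reads that fit several copies are divided among them, the level of a single copy is uncertain. The exact permutation test, two-sided on log2 FPKM, cannot go below p = 0.1 in these comparisons.

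C4bp, the C4b-binding protein that inhibits the classical pathway (chr1:130635921-130661657), was at 44.7, 59.7 and 43.3 FPKM on its chromosome copy in laboratory mice and at 161, 190 and 155 FPKM in wild mice. It was separated by 3.43-fold in mean FPKM (exact permutation p = 0.1), and summed over copies it was 2.50-fold higher in wild mice. Entered in the limma fit as a row of its own, a fit added after seeing the data, this copy differed by -0.37 ± 0.12 zFPKM (adjusted p = 0.0260). It was the 1 of 22 copies of the repeated members that passed, and the alternate copy of C4bp differed by -0.14 zFPKM (adjusted p = 0.591). C4a (chr17:34809092-34823460), the gene next to C4b, was at 2.49, 2.91 and 2.67 FPKM in laboratory mice and at 10.7, 7.06 and 7.35 FPKM in wild mice on its chromosome copy (exact permutation p = 0.1). C4b, the main source of C4 (chr17:34728139-34743902), was at 40.8 and 38.5 FPKM in laboratory mice 2 and 3 and at 46.2, 69.2 and 58.0 FPKM in wild mice (exact permutation p = 0.2). Cfb, factor B, the protease of the alternative convertase (chr17:34856374-34862514), was at 89.3 and 57.7 against 101, 169 and 187 FPKM (exact permutation p = 0.2). C2, its counterpart in the classical pathway (chr17:34862602-34882100), was at 7.01 and 6.06 against 6.36, 10.2 and 8.25 FPKM, and the groups overlapped (exact permutation p = 0.3). The chromosome copies of C4a, C4b, C4bp and Cfb were thus lower in each laboratory mouse with a value than in every wild mouse, as were 43.7% of all tested genes. That share is over 3 laboratory mice, whereas C4b and Cfb had a value in 2, where separation is easier to reach.

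For Masp2 and Cd55 the copy decided the direction. The chromosome copy of Masp2, the lectin pathway protease that cleaves C4 (chr4:148594622-148615499), was at 108 and 75.5 FPKM in laboratory mice 2 and 3 and at 68.1, 63.3 and 67.2 FPKM in wild mice (exact permutation p = 0.1), whereas its alternate copy was at 44.9, 47.1 and 28.8 FPKM in laboratory mice and at 114, 99.6 and 106 FPKM in wild mice. Summed over both copies Masp2 was 1.33-fold higher in wild mice. Cd55, the decay-accelerating factor (chr1:130429798-130465009), was at 0.772 and 1.39 FPKM on its chromosome copy in laboratory mice 2 and 3 and at 0.118, 0.543 and 0.443 FPKM in wild mice (exact permutation p = 0.2), and its alternate copy was at 0.116 to 0.265 against 0.343 to 1.35 FPKM. The sum over both copies overlapped between the groups.

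The division between copies was compared over 2 laboratory and 3 wild mice. The ratio of the chromosome copy to 1 alternate copy was 2.30 and 2.62 in laboratory mice 2 and 3 for Masp2, against 0.598 to 0.636 in wild mice, and 6.68 and 7.61 for Cd55, against 0.343 to 0.474. For C4bp it was 0.703 and 0.695 against 1.15 to 1.20, and for C4a 0.664 and 0.768 against 1.17 to 1.47. The ratio did not overlap between the groups for 6 of the 7 genes, higher in laboratory mice for 3 (Masp2, C2 and Cd55) and lower for 3 (C4a, Cfb and C4bp), and it overlapped for C4b. Over 731 repeated names with a value for both copies, the ratio was wholly higher in laboratory mice for 41.7% and wholly lower for 10.8%, so such separation was common among repeated names.

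**Figure D5:**
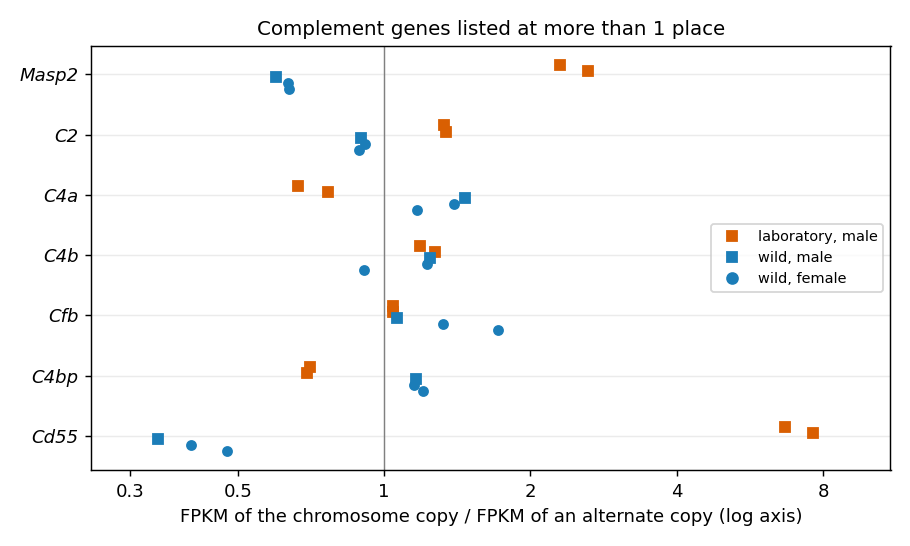
FPKM of the chromosome copy divided by that of 1 alternate copy (log axis) for the 7 complement genes listed at more than 1 place, in the 5 mice that list both. Laboratory and wild mice lie on opposite sides of 1 for Masp2, C2, C4a, C4bp and Cd55.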

How the data were processed

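RNA-Seq of liver was deposited for 6 mice, 1 file each. The authors aligned reads from stranded mRNA libraries to a masked genome (GRCm38.p6, per the labels) with kalign and deposited FPKM from the Tuxedo pipeline together with zFPKM, a score for which log2 FPKM was centred on the mode and divided by the SD of the same mouse. The files hold no counts, so the count-based test of the methods was not run, and depth is unknown. Of 47256 names listed once for every mouse, 15 with a failed estimate were left out, among them Alb; failures are not marked in laboratory mouse 1. Names with zFPKM above -3 in at least 3 mice were tested with limma 3.58.1 under R 4.3.3 (eBayes with a trend of the variance, values floored at -3, Benjamini-Hochberg adjustment, threshold 0.05). For repeated names, log2 FPKM was put to an exact permutation test (two-sided). Sequences were matched to the RefSeq promoter table with Python 3.11.15. The members and gene lists (macrophage, monocyte and neutrophil, hepatocyte, adipocyte, stellate, endothelial, acute phase, other complement genes) were chosen with earlier results of these data known, and some results of the lists are not reported here. Values per mouse are given for members that passed the threshold, had no overlap, were among the 10 highest or were repeated, and others by range. The fit was tested on simulated data. It recovered 78.5% of 200 genes among 18628 that had been shifted by 2 zFPKM, and 3.68% of its calls were false. This shift was larger than the difference of any member, and the simulated mice differed by independent noise only. Both rates therefore do not carry over to the members or to the calls in the real data. Alternatives were another floor, scale, scaling, filter or variance model, sex as a covariate, males only, and each mouse left out. Each copy of a repeated name as its own row was added after seeing the data.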

Additional observations from a re-analysis of the deposited data

How the results depend on the processing

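No paired analysis was possible because the labels carry no replicate numbers that the groups share. C3 and Clu stayed lower and C6, C8a, C8b and C9 higher in laboratory mice in every fit, but whether they passed the threshold depended on the setting. A change of floor, filter or variance model could not alter these estimates. The counts of members called higher, members called lower and all tested genes called were 8, 2 and 2692 as reported. They were 1, 10 and 8252 on log2(FPKM + 1), 3, 10 and 8598 on log2(FPKM + 0.1), 6, 5 and 7288 after quantile normalization, 4, 2 and 5278 with each median at 0, 0, 0 and 23 without a filter (47241 genes tested), 0, 0 and 795 without the trend, 3, 0 and 1373 with sex as a covariate, and 0, 0 and 0 with males only (limma, 6 members and 3122 genes at an unadjusted p under 0.05). A floor of -5 gave 5 members higher. With each median at 0, Masp1 and Cd59a were called lower, whereas C3 (limma adjusted p = 0.441) and Clu (0.0967) did not pass. Fcna, Cfp, C8b and C9 were called higher there, whereas C6 (0.0502) and C8a (0.0510) did not pass. Quantile normalization added Fcna as higher and Masp1, Serping1 and Cd59a as lower. The 10 called lower on both log2 scales were C3, Clu, Mbl2, C1ra, Masp1, Hc, Serping1, Cfi, Cd59a and Cr1l. Without 1 mouse each, 4 to 9 members were higher, 2 were lower and 1421 to 2557 genes were called. The other complement genes called (8 as reported) numbered 5 with a floor of -5 and 0 without a filter, without the trend, with sex as a covariate and with males only, and 3 to 7 without 1 mouse each. The macrophage markers called (2 as reported) numbered 1 with a floor of -5 and after quantile normalization, 4 with sex as a covariate, and 0 without a filter, without the trend and with males only, and 0 to 2 without 1 mouse each. Differences that were not called as reported changed sign as follows. On log2(FPKM + 1) and log2(FPKM + 0.1), C1qa was -0.057 and -0.048, C1qb -0.35 and -0.34, C1ra -0.59 and -0.59 (past the threshold there as lower, limma adjusted p = 0.0318 and 0.0292), C1s1 -0.30 and -0.31, and Cfhr2 -0.026 and -0.025. With sex as a covariate and with males only, C1qc was 0.54, Mbl2 0.035, Hc 0.056, Cfi 0.068 and Cr1l 0.20. After quantile normalization Cr1l was 0.0100. Without 1 mouse each, C1qa ranged from -0.10 to 0.47, C1qb from -0.25 to 0.37, C1ra from -0.050 to 0.16, C7 from -0.42 to 0.12, Cfi from -0.14 to 0.058 and Cr1l from -0.18 to 0.13. The lowest value came without wild mouse 1 for C1qa, C1qb, C1ra and Cr1l, and the highest without laboratory mouse 3 for C1ra, C7, Cfi and Cr1l. Masp2 was -0.44 in log2 FPKM when its copies were summed. The causes were not tested. With 3 mice a group, of which 1 wild mouse was male, precision is limited by the number of mice, and depth is unknown.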
